A study of Mus musculus with 27 samples.

Results

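Innate-like T cells, among them natural killer T (NKT) cells and γδ T cells, were followed through 10 genes: the transcription factors Zbtb16, Tbx21, Maf and Sox13, the cytokines Il4 and Ifng, the receptors Il18rap and Cd160, and the γδ T cell receptor segments Trgv1 and Trgv4. These are 10 of the 18194 genes measured, read by 23 of the 34958 probe sets that name a single gene. The list was chosen by gene function, among NKT and γδ T cell genes, and by log2 array levels in Foxp3- CD24low thymocytes, Treg precursors and lymph node naive cells. Differences of any gene that involve those 3 groups are therefore described here, with no p-value given.

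RNA came from sorted T cells of Balb/c mice carrying a GFP reporter of Foxp3, the master factor of regulatory T cells (Tregs), with 3 arrays in each of 9 groups and 27 in all. Of the thymic groups, 6 crossed Foxp3 status (Foxp3+GFP+ or Foxp3-GFP-) with the level of CD24, a surface protein that falls as thymocytes mature, at CD24hi, CD24int and CD24low. The seventh thymic group was the Treg precursors, described in the series title as CD4 single-positive, Foxp3GFP- and CD25+, with no CD24 gate in their labels. The lymph node groups were peripheral Tregs and naive cells. The source labels of the Foxp3- thymocytes carry the word Treg, although the design calls them conventional. The labels give no age, no number of mice per sample and no reporter construct, and leave unstated if each replicate was a different animal, so p-values measure only the spread between these samples, which may be technical.

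NKT cells and γδ T cells acquire effector functions inside the thymus, before they meet a pathogen. PLZF, the protein of Zbtb16, directs the NKT programme and is also found in some γδ T cells, whose early subsets are further shaped by Sox13 and c-Maf. T-bet, the protein of Tbx21, drives interferon-γ production, and c-Maf activates Il4.

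Values are RMA intensities, turned to log2, where a difference of 1 is a doubling. The quartiles of the 18194 gene means were 3.90, 5.77 and 8.27, and the arrays of a group correlated across genes at r = 0.987 to 0.997. Each gene is given by its brightest probe set, in the order of replicates 1, 2 and 3, and levels of different genes are not comparable. Foxp3 lay between 9.74 and 10.19 on every Foxp3+ and lymph node Treg array and between 3.31 and 4.37 on all others. Il2ra, which encodes CD25, averaged 8.16 in precursors and 4.22 in Foxp3- CD24low cells. Cd24a averaged 6.00 in Foxp3- CD24low cells, 6.89 in lymph node naive cells and 11.74 in precursors. The summed level of 6 genes that define T cells stayed between 13.95 and 14.55 on all arrays. Replicate 3 of the Foxp3- CD24hi cells stood apart, with a summed level of 6 liver genes of 12.67 against 6.83 to 7.33 on the other arrays.

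**Figure D1:**
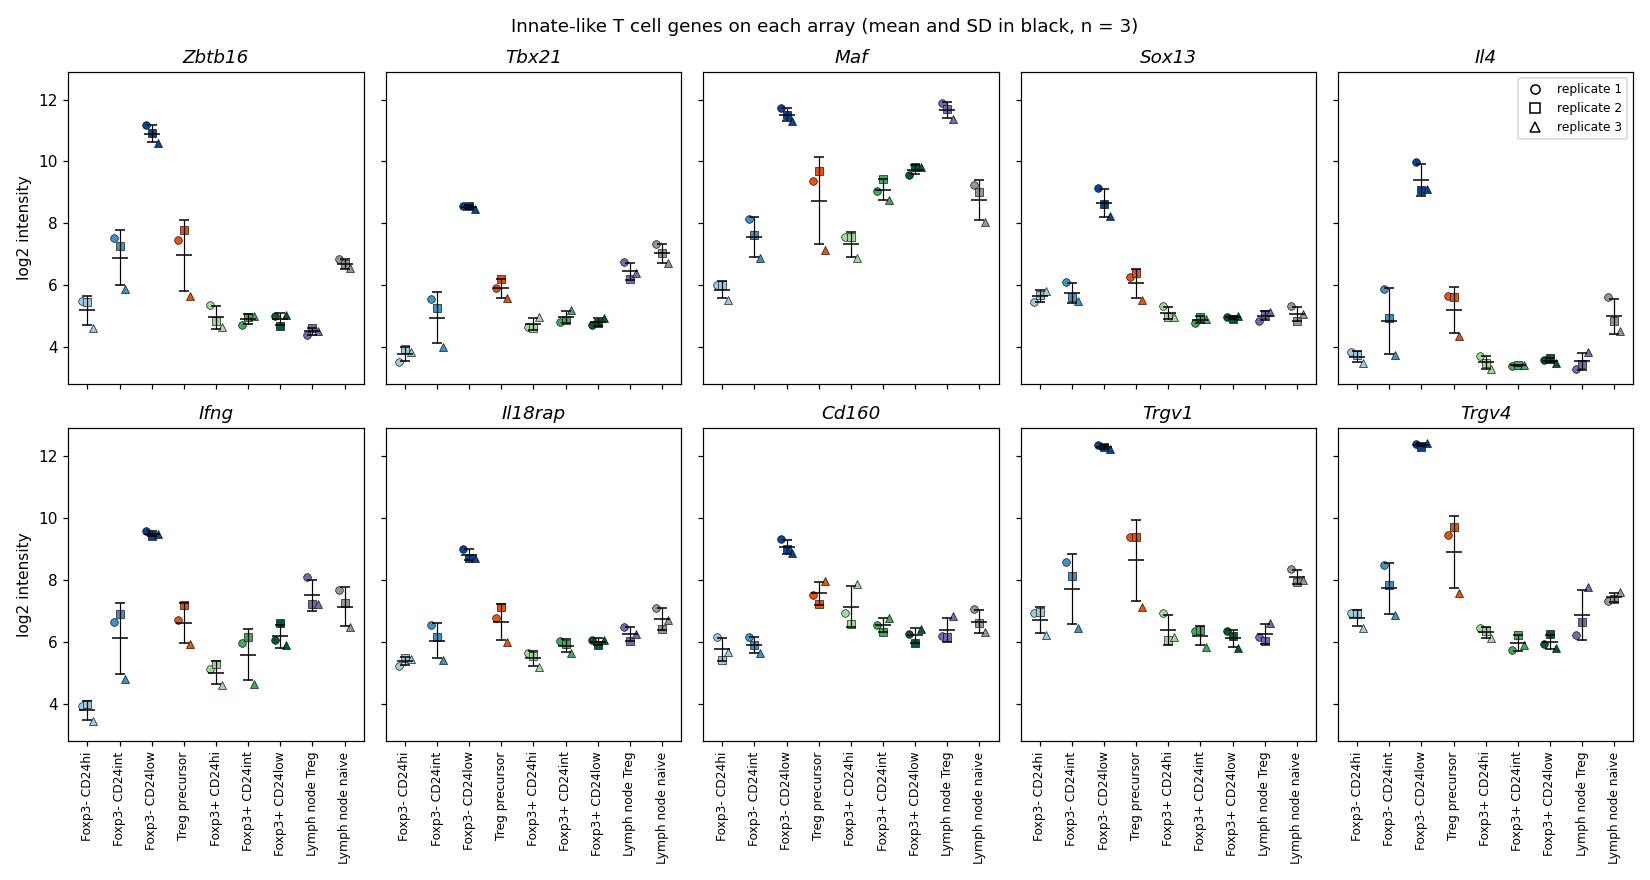
Log2 intensity (vertical axis) of each of the 10 genes on every array of the 9 groups (horizontal axis). Points are arrays, with marker shape giving the replicate, and black bars are the mean and SD (n = 3). Foxp3- CD24low cells hold the highest mean for 9 genes, which were chosen with the levels of that group known. Maf is highest in lymph node Tregs.

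All 10 genes were higher in Foxp3- CD24low thymocytes than in Treg precursors, with no overlap between the 3 arrays of each group. The share of all genes that were higher without overlap was 16.4%, and nothing is read from this count because the genes were chosen with these groups known. The median difference was 2.84, against 0.04 over all genes, and the genes ran from Cd160 at 1.50 to Il4 at 4.19. Against lymph node naive cells all 10 were again higher without overlap, where 15.1% of all genes were, with a median difference of 3.17 and a range from 1.49 for Tbx21 to 4.95 for Trgv4. In bulk samples, fewer cells of a type and less RNA per cell cannot be told apart. The B cell list (7 genes measured) summed to 9.84 to 10.35 in Foxp3- CD24low cells, 8.89 to 9.86 in precursors and 11.40 to 11.52 in naive cells, and the double-positive thymocyte list (9 genes) to 10.22 to 10.39, 11.67 to 12.60 and 10.31 to 10.38. Their part in the result was not tested.

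Zbtb16 read 11.17, 10.91 and 10.61 in Foxp3- CD24low cells, 7.46, 7.80 and 5.65 in precursors, and 6.85, 6.68 and 6.54 in naive cells. The Foxp3- CD24low mean was 15.2-fold above precursors (difference 3.93 ± 0.39, SE) and 18.4-fold above naive cells (4.20 ± 0.39). Precursors and naive cells overlapped, with precursor replicates 1 and 2 above every naive array and replicate 3 below every one. Its next mean after Foxp3- CD24low cells was that of precursors at 6.97, which overlapped Foxp3- CD24int cells at 6.89, and these overlapped naive cells at 6.69.

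Tbx21 read 8.55, 8.57 and 8.45 in Foxp3- CD24low cells, 5.90, 6.20 and 5.59 in precursors, and 7.33, 7.05 and 6.71 in naive cells. The 3 groups were fully separated, in the order Foxp3- CD24low, naive, precursor. The gap was 2.63 ± 0.26 to precursors and 1.49 ± 0.26 to naive cells. Lymph node Tregs, at a mean of 6.45, came next, overlapping naive cells and lying above every precursor array.

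Maf read 11.73, 11.51 and 11.30 in Foxp3- CD24low cells, 9.37, 9.71 and 7.12 in precursors, and 9.25, 9.00 and 8.04 in naive cells. Naive and precursor means lay 0.03 apart, and both were far below Foxp3- CD24low cells (2.75 ± 0.43 and 2.78 ± 0.43). Lymph node Tregs, at 11.90, 11.70 and 11.38, had the highest Maf mean of any group and overlapped Foxp3- CD24low cells. In this Maf differed from the other 9 genes, for which Foxp3- CD24low cells ranked first and overlapped no other group. The genes were chosen with the levels of this group known, and no share of all genes is given, so nothing is read from that count.

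Sox13, a factor of early γδ T cells, read 9.14, 8.61 and 8.23 in Foxp3- CD24low cells, 6.28, 6.39 and 5.52 in precursors, and 5.32, 4.85 and 5.06 in naive cells. The means of the other 8 groups lay between 4.88 and 6.06, so that Sox13 stood out in Foxp3- CD24low cells alone. The gap to naive cells, 3.59 ± 0.21 or 12.0-fold, was larger than that to precursors, 2.60 ± 0.21 or 6.07-fold.

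Il4, the cytokine of type 2 responses made early by NKT cells, read 10.00, 9.09 and 9.10 in Foxp3- CD24low cells. It read 5.65, 5.62 and 4.34 in precursors and 5.62, 4.83 and 4.50 in naive cells, which overlapped. Foxp3- CD24low cells were 18.2-fold above precursors (4.19 ± 0.38) and 21.2-fold above naive cells (4.41 ± 0.38). In the 12 arrays of Foxp3+ thymocytes and lymph node Tregs, Il4 stayed between 3.29 and 3.84.

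Ifng, the cytokine of type 1 responses, read 9.57, 9.41 and 9.49 in Foxp3- CD24low cells, 6.69, 7.19 and 5.92 in precursors, and 7.68, 7.27 and 6.46 in naive cells. Foxp3- CD24low cells were 7.42-fold above precursors (2.89 ± 0.44) and 5.11-fold above naive cells (2.35 ± 0.44). Lymph node Tregs came second, at 8.08, 7.22 and 7.22, and overlapped naive cells. Over the 12 Foxp3+ and lymph node Treg arrays Ifng spanned 4.59 to 8.08, so the cytokines parted in Tregs, Il4 staying low on every array and Ifng not.

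The sequences before the starts of Il4 and Ifng are shown because these genes share their peak in Foxp3- CD24low cells and part in lymph node Tregs, the group with the highest mean of Maf. Both are the 250 bases before the gene start from RefSeq on GRCm38.p6, for Il4 chr11:53618666-53618915 on the minus strand and for Ifng chr10:118440796-118441045 on the plus strand. Capitals mark the Maf core TGCTGA or its reverse complement.
Il4: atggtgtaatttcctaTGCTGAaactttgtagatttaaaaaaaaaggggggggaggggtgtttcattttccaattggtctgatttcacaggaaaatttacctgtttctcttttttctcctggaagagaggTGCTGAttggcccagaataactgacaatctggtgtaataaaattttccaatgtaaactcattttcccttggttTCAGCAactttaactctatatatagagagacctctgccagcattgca
Ifng: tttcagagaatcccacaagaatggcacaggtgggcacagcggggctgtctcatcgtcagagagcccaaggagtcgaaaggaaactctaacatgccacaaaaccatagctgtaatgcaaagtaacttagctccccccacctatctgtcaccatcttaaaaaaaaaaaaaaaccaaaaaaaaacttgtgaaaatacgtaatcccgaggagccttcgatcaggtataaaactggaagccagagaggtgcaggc
The Il4 window holds 3 Maf cores, whose first bases lie 234, 120 and 47 bases before the start, and the Ifng window has none of these letters. Windows were found for 6 of the 10 genes (Tbx21, Sox13, Il4, Ifng, Il18rap and Cd160), and among them Il4 and Cd160 held the Maf core, which is in 16.1% of 32851 windows of this length searched on both strands. Il4 and Cd160 each had a further window, away from the gene start, and a gene was counted if any of its windows held the core. The shares are per window, so the gene counts cannot be set directly against them. The NFAT core GGAAA, bound by factors that act after T cell receptor signals, was in 55.6% of windows and in 5 of 6 genes. Sox13 had none, and Cd160 had it only in the window away from the gene start. The Runx core TGTGGT was in Cd160 alone and in 14% of windows. The T-box core AGGTGT (11.8% of windows) and the AP-1 site TGANTCA (6.75%) were in 0 of the 6. In the Il4 window the 5 NFAT cores overlapped no Maf core. A match describes letters and does not show binding, and a part of Maf in the Il4 and Ifng levels was not tested.

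Il18rap, a subunit of the interleukin-18 receptor, through which interleukin-18 promotes interferon-γ release, read 9.01, 8.72 and 8.71 in Foxp3- CD24low cells. It read 6.78, 7.12 and 5.98 in precursors and 7.09, 6.39 and 6.69 in naive cells, which overlapped. The gap was 2.19 ± 0.25 to precursors and 2.09 ± 0.25 to naive cells.

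Cd160, a surface receptor of NK cells and innate-like lymphocytes, read 9.31, 9.01 and 8.87 in Foxp3- CD24low cells, 7.50, 7.23 and 7.96 in precursors, and 7.05, 6.60 and 6.30 in naive cells. The 3 groups were fully separated, in the order Foxp3- CD24low, precursor, naive. Precursors, at a mean of 7.56, were second among all groups and overlapped Foxp3+ CD24hi cells at 7.13.

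Trgv1 and Trgv4 encode variable segments of the γ chain of the γδ T cell receptor. Foxp3- CD24low cells exceeded naive cells by 4.95 ± 0.41 (30.8-fold) for Trgv4 and by 4.21 ± 0.46 (18.5-fold) for Trgv1, and precursors by 3.47 and 3.66. Trgv1 read 12.38, 12.28 and 12.24 in Foxp3- CD24low cells, 9.40, 9.39 and 7.13 in precursors, and 8.34, 7.92 and 7.99 in naive cells. Trgv4 read 12.40, 12.30 and 12.42, then 9.46, 9.70 and 7.57, then 7.31, 7.37 and 7.61. Precursor arrays 1 and 2 lay above every naive array for both segments, and array 3 lay below every naive array for Trgv1 and overlapped them for Trgv4. Probe sets of γ variable segments may read near-identical copies, so which segment is measured is uncertain, and the 21 other γδ segments of the list had no single-symbol probe set.

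**Figure D2:**
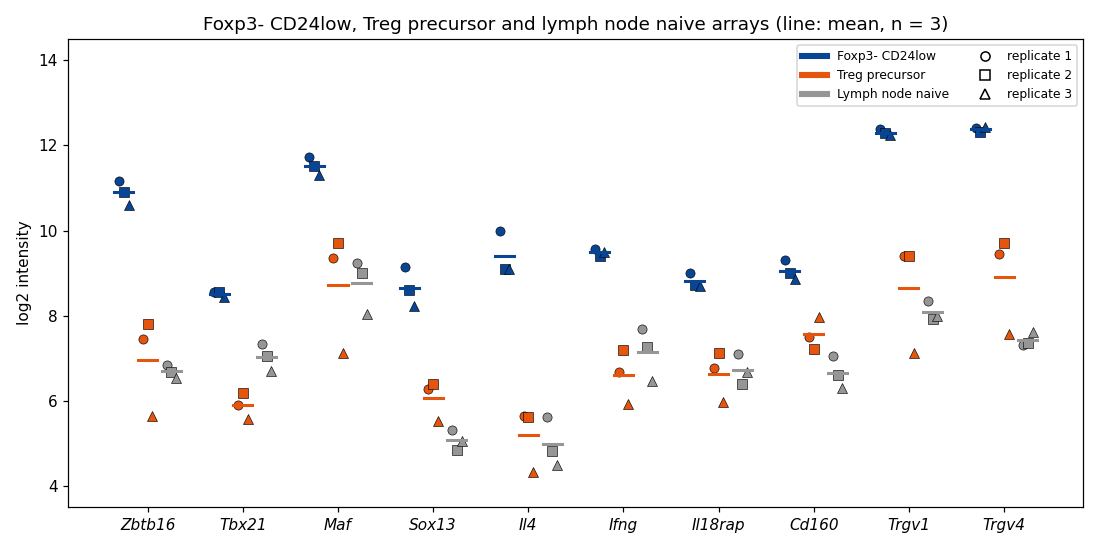
Log2 intensity (vertical axis) of the 10 genes (horizontal axis) in Foxp3- CD24low cells, Treg precursors and lymph node naive cells. Points are the 3 arrays of each group and lines their means. Foxp3- CD24low arrays lie above all others for every gene, and precursor replicate 3 is the lowest precursor array for 9 of 10.

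Between precursors and naive cells, Tbx21 was higher in naive cells without overlap (1.14), where 21.5% of all genes were, and Sox13 (-0.99) and Cd160 (-0.91) were lower in naive cells without overlap, where 17.3% of all genes were. The other 7 overlapped. Precursor replicate 3 was the lowest of its group for 9 of 10 genes, all but Cd160, where 28.6% of all genes were lowest there, with a median difference of -1.15 from the mean of the other precursor arrays. Without it, 6 genes were lower in naive cells without overlap instead of 2: Zbtb16 (-0.94), Maf (-0.78), Sox13 (-1.26), Trgv1 (-1.31), Trgv4 (-2.15) and Cd160 (-0.71). Fewer arrays separate more easily, and the share of all genes is not given for this setting, so nothing is read from this count. All 10 stayed higher in Foxp3- CD24low cells without that array, with Zbtb16 at 3.27, Il4 at 3.76 and Trgv1 at 2.90. The array's Cd24a was 12.23 against 11.50 and 11.49, its double-positive thymocyte list summed to 11.67 against 12.60 and 12.30, and its B cell list to 8.89 against 9.86 and 9.50. Their part in the result was not tested.

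Between CD24hi and CD24int, Zbtb16, Tbx21, Maf and Ifng rose in Foxp3- cells, and 0 of 10 fell, also at an unadjusted p under 0.05. Here 5.01% of all genes passed limma's moderated test in either direction and 2.26% rose, and 4 of 10 members did. Ifng read 3.93, 3.99 and 3.43 at CD24hi and 6.63, 6.90 and 4.80 at CD24int, a rise of 2.33 ± 0.44 (adjusted p = 0.00131). Zbtb16 read 5.47, 5.44 and 4.63 against 7.52, 7.28 and 5.88, a rise of 1.71 ± 0.39 (adjusted p = 0.00764). Maf rose by 1.70 ± 0.43 (adjusted p = 0.0178) by its brightest probe set, but no other Maf probe set passed. Tbx21 rose by 1.17 ± 0.26 (adjusted p = 0.00544).

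The other 6 did not pass: Il4 differed by 1.16 (adjusted p = 0.0845), Trgv1 by 1.01 (0.281), Trgv4 by 0.96 (0.235), Il18rap by 0.65 (0.16), Cd160 by 0.14 (0.885) and Sox13 by 0.10 (0.902). The CD24int replicate 3 was the lowest of its group for all 10 genes, where 32.1% of all genes were, with a median difference of -1.36 from the mean of the other arrays. Its Cd24a was 8.77 against 7.41 and 8.44. Without it 7 genes passed, adding Il4 at 1.72, Il18rap at 0.96 and Trgv1 at 1.64. The share of all genes is not given without this lowest array, so nothing is read from that count. Without CD24hi replicate 3, the array with liver transcripts, 2 passed, since Zbtb16 (limma adjusted p = 0.0634) and Maf (0.0874) did not. Without CD24int replicate 1 or 2, Ifng alone passed, with Tbx21 at 0.0618 and 0.0501, Zbtb16 at 0.0678 and 0.0571, and Maf at 0.115 and 0.0672. With the compared groups fitted alone, Zbtb16 (0.0546) and Tbx21 (0.126) did not pass. With replicate number as a block Il4 also passed (adjusted p = 0.0189). The double-positive thymocyte list summed to 12.67 to 13.12 at CD24hi and 11.07 to 11.39 at CD24int, with 4 of 9 genes falling. The antigen-presenting cell list summed to 9.29 to 9.59 and 9.72 to 10.40, with 2 of 11 rising. Their part in the result was not tested.

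From CD24int to CD24low all 10 were higher without overlap, where 14.4% of all genes were, with a median of 3.77 and a range of 2.78 to 4.65. This contrast uses a group that chose the genes and carries no test.

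Set against Foxp3- cells of the same CD24 level, Foxp3+ cells were lower in 5 members at CD24int. Maf, by its brightest probe set, was higher in Foxp3+ cells at both earlier stages, but no other Maf probe set passed at CD24hi. Foxp3+ cells differed from Foxp3- cells at CD24hi in 3 of 10 genes, all higher, where 18% of all genes passed and 8.38% were higher. Cd160 read 6.92, 6.58 and 7.87 against 6.16, 5.42 and 5.67, a rise of 1.37 ± 0.27 (limma adjusted p = 0.000543). Tbx21 rose by 0.97 ± 0.26 (adjusted p = 0.00776) and Maf by 1.48 ± 0.43 (adjusted p = 0.0167). Ifng at 1.22 (adjusted p = 0.0577) and Sox13 at -0.56 (adjusted p = 0.0696) did not pass, though both did with replicate number as a block (0.00316 and 0.0436). Maf did not pass without Foxp3- CD24hi replicate 3 (adjusted p = 0.0707), or without Foxp3+ CD24hi replicate 1 (0.0684) or 2 (0.0691). The double-positive thymocyte list summed to 10.62 to 10.89 in Foxp3+ and 12.67 to 13.12 in Foxp3- cells, with 5 of 9 genes lower, and its part in the result was not tested.

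At CD24int, 6 of 10 genes differed, where 15.3% of all genes did. Maf was higher in Foxp3+ cells, where 8.66% of all genes were, and 5 were lower, where 6.62% were. Zbtb16 read 4.73, 4.98 and 5.00 in Foxp3+ against 7.52, 7.28 and 5.88 in Foxp3- cells and fell by 1.99 ± 0.39 (adjusted p = 0.00056). Trgv4 fell by 1.78 ± 0.41 (adjusted p = 0.00299), Trgv1 by 1.52 ± 0.46 (0.0237), Il4 by 1.44 ± 0.38 (0.00874) and Sox13 by 0.86 ± 0.21 (0.00487). Maf read 9.05, 9.43 and 8.76 against 8.15, 7.63 and 6.87 and rose by 1.53 ± 0.43 (adjusted p = 0.0151). Single arrays decided 3 of these calls: Trgv1 did not pass without Foxp3- CD24int replicate 1 (0.16) or 2 (0.111) or Foxp3+ CD24int replicate 3 (0.0934), Il4 not without Foxp3- CD24int replicate 1 (0.098), and Maf not without Foxp3- CD24int replicate 3 (0.107) or Foxp3+ CD24int replicate 2 (0.0742). The antigen-presenting cell list summed to 9.02 to 9.36 in Foxp3+ and 9.72 to 10.40 in Foxp3- cells, with 6 of 11 genes lower, and the double-positive thymocyte list to 10.62 to 10.82 and 11.07 to 11.39, with 2 of 9 lower. Their part in the result was not tested.

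The test of whether the Foxp3 difference itself changed between CD24hi and CD24int found 0 of 10 members (limma, adjusted p under 0.05), where 1.54% of all genes passed, although 5 had an unadjusted p under 0.05. The 5 were Zbtb16 (-1.77, adjusted p = 0.123), Ifng (-1.75, 0.195), Tbx21, Il4 and Trgv4. Without Foxp3- CD24int replicate 3, 4 passed: Zbtb16 (-2.27), Ifng (-2.40), Il4 (-1.81) and Tbx21 (-1.42). That array was the lowest of its group for all 10 members, and the share of all genes is not given without it. Nothing is therefore read from this count.

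At CD24low every gene was lower in Foxp3+ than in Foxp3- cells without overlap, where 18.3% of all genes were, with a median of -3.71. Trgv4 differed by -6.39 and Maf by -1.78, the smallest gap. The antigen-presenting cell list (11 genes measured) summed to 8.67 to 9.10 in Foxp3+ and 10.13 to 10.66 in Foxp3- CD24low cells, and its part in the result was not tested. These values are described and not tested. Over the 12 arrays of Foxp3+ thymocytes and lymph node Tregs, Zbtb16 stayed between 4.40 and 5.36, Sox13 between 4.77 and 5.32, Trgv1 between 5.81 and 6.93 and Il18rap between 5.19 and 6.49. Trgv4 ran from 5.72 to 7.77, with its highest value on lymph node Treg replicate 3 (6.21 and 6.63 on the others of that group). Cd160 ran from 5.95 to 7.87, highest on Foxp3+ CD24hi replicate 3, and Maf from 6.86 to 11.90.

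**Figure D3:**
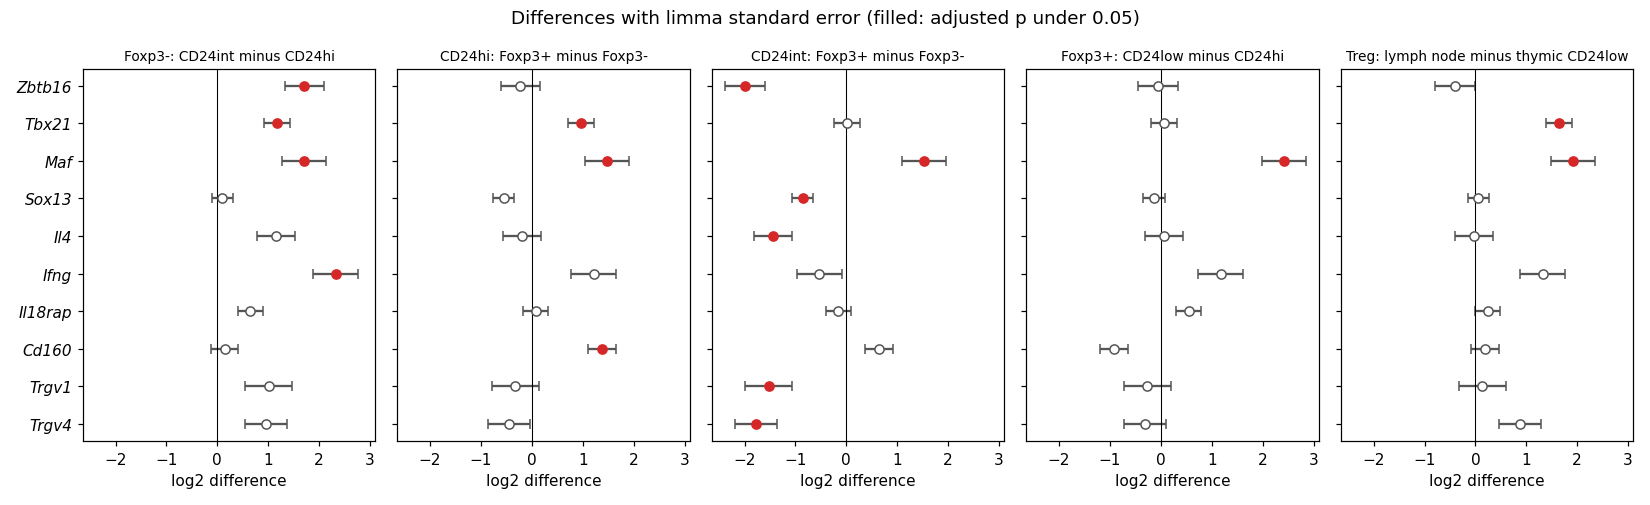
Log2 difference (horizontal axis) of each gene in the 5 tested comparisons of groups. Bars are ± 1 SE and filled points passed an adjusted p under 0.05. Maf, by its brightest probe set, is filled in all 5 panels. Zbtb16 is higher at CD24int than CD24hi in Foxp3- cells and lower in Foxp3+ than Foxp3- cells at CD24int.

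Within the Treg line, Maf rose with maturation and again in lymph node. It read 7.56, 7.55 and 6.86 in Foxp3+ CD24hi cells and 9.56, 9.83 and 9.82 in Foxp3+ CD24low cells, a rise of 2.41 ± 0.43 (limma adjusted p = 0.00122). Of the 10 genes this was the sole one to pass, where 3.1% of all genes passed and 2.29% rose. Ifng differed by 1.18 (adjusted p = 0.199) and Cd160 by -0.92 (0.0658). With replicate number as a block Ifng (0.0152) and Cd160 (0.0203) also passed, and Cd160 passed without Foxp3+ CD24hi replicate 2 (-1.19, adjusted p = 0.0212). The B cell list summed to 9.18 to 10.09 at CD24hi and 10.57 to 10.71 at CD24low, with 1 of 7 genes rising, and its part in the result was not tested.

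In lymph node Tregs against Foxp3+ CD24low thymocytes, Tbx21 and Maf rose, 2 of 10, where 5.93% of all genes passed and 3.15% rose. Tbx21 read 6.74, 6.20 and 6.40 against 4.70, 4.78 and 4.93, a rise of 1.65 ± 0.26 (adjusted p = 0.000114), and Maf rose by 1.92 ± 0.43 (adjusted p = 0.00566). Ifng differed by 1.33 (adjusted p = 0.0848), and passed with replicate number as a block (0.00394). The B cell list summed to 11.98 to 12.30 on lymph node Treg arrays and to 10.57 to 10.71 on Foxp3+ CD24low arrays, with 5 of 7 genes rising. The antigen-presenting cell list summed to 9.78 to 10.31 and 8.67 to 9.10, with 4 of 11 rising, and the part of both lists in the result was not tested.

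Lymph node Tregs against naive cells, described only, had Maf higher without overlap (2.90), where 14.1% of all genes were, and Zbtb16 (-2.19), Trgv1 (-1.84) and Il4 (-1.46) lower, where 14.6% were. The other 6 overlapped.

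Several genes had more than 1 probe set, 6 for Maf, 4 for Cd160, 3 for Zbtb16 and Trgv4, and 2 for Il18rap, so that 23 were read. Against precursors all 23 were higher in Foxp3- CD24low cells without overlap, from 0.36 to 4.19, and against naive cells 22 were, from 0.30 to 5.29. The exception was a Maf probe set that lay between 4.50 and 5.37 on all 27 arrays and barely varied between groups. The probe sets read the same genes, chosen with these groups known, and no share of all probe sets is given. Nothing is therefore read from these 2 counts. When the mean of all probe sets of a gene was used instead of the brightest, Maf did not pass in Foxp3+ against Foxp3- CD24hi cells (0.60, limma adjusted p = 0.198) or from Foxp3- CD24hi to CD24int (0.79, 0.17).

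**Figure D4:**
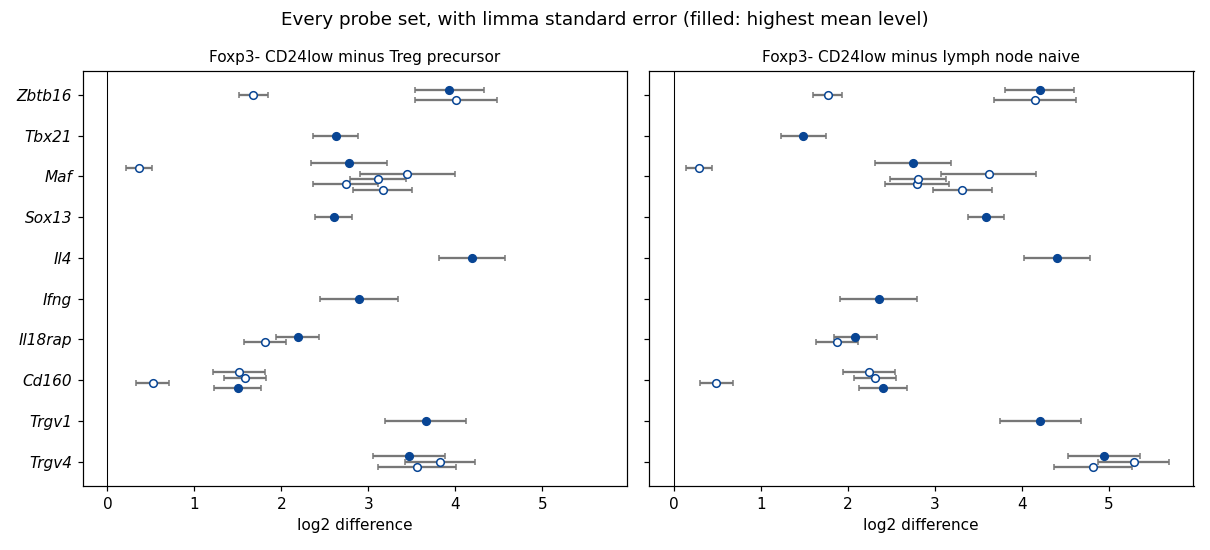
Log2 difference (horizontal axis) of the 23 probe sets between Foxp3- CD24low cells and precursors (left) and naive cells (right). Bars are ± 1 SE and filled points are the brightest probe set of a gene. The smallest differences are those of 1 Maf probe set and 1 Cd160 probe set.

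Across the 27 arrays the members correlated with each other at r = 0.36 (Sox13 with Maf) to 0.98 (Trgv1 with Zbtb16), with a median of 0.77 over 45 pairs. The arrays share groups and replicate digits, and the Foxp3- CD24low arrays sit far from the others, so these values are a description. Without those 3 arrays the median was 0.45 over 24 arrays. There Zbtb16, Il4, Trgv1 and Trgv4 stayed close, as in Il4 with Trgv1 (0.96) and Zbtb16 with Trgv1 (0.95), Tbx21 went with Ifng (0.86), Maf with Ifng (0.81), and Maf against Sox13 at -0.31.

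**Figure D5:**
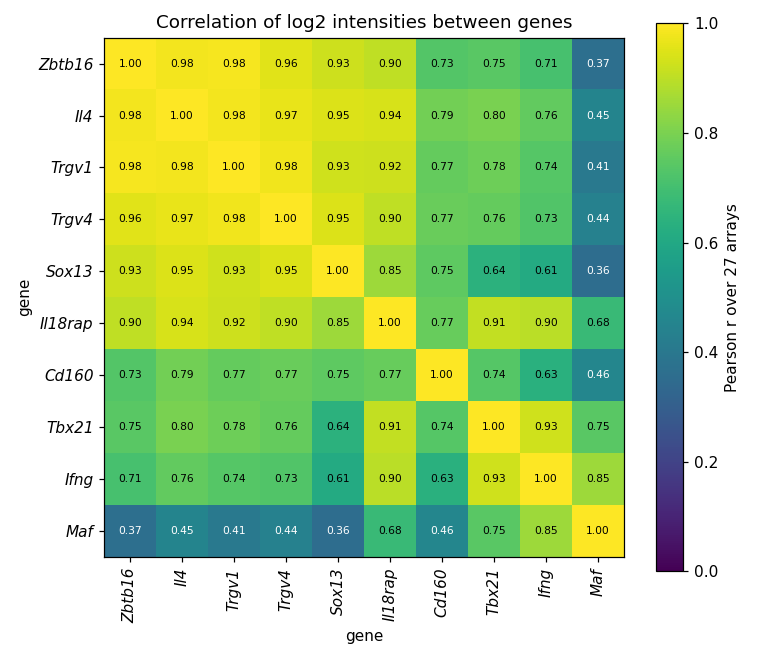
Pearson correlation of log2 values between the 10 genes over the 27 arrays. Yellow cells are the highest values and blue cells the lowest. Maf has the lowest correlations with the rest (median 0.45).

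The genes most like each member over the 27 arrays were Atp8b4, Rnf144a and Ctla2b for Zbtb16 (r = 0.98, 0.98 and 0.97), which also led Il4 and Trgv1. These values are a description, because they include the Foxp3- CD24low arrays, which sit far from the others. They were not worked out without those arrays. Maf was most like S100a6, Cst7 and S100a4 (0.98, 0.98 and 0.97), Tbx21 like Arsb and Mirt1 (0.94 and 0.93), Ifng like Arsb and Il18r1 (0.95 and 0.93), Sox13 like Cxxc5 (0.97), Trgv4 like Klrc1 (0.96), Il18rap like Ctla2b (0.94) and Cd160 like Acaca (0.88).

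Of the 101 other genes on the lists of innate-like factors, cytokines, receptors and effectors, 72 were measured; Klrb1c, which encodes the NK1.1 antigen, and Trdc had no single-symbol probe set. These genes are described, with no p-value given, wherever Foxp3- CD24low cells, precursors or naive cells are compared, because those groups also guided the choice of genes. Those given below with a difference were picked by the smallest p in the same fit, so their sizes are a description. Their median difference between Foxp3- CD24low cells and precursors was 0.55, against 0.04 over all genes, and 0.55 against naive cells, where the median over all genes was -0.03. By role, the median against precursors was 1.38 for 9 cytotoxic effectors, 1.57 for 18 surface receptors and adaptors, and 0.09 for 20 lineage factors. It was 0.46 for 11 cytokine receptors and -0.03 for 14 cytokines and chemokines. Cst7, which encodes a protease inhibitor of cytotoxic cells, was 2.95 ± 0.22 (SE) higher than in precursors, while Lta differed by -1.80 and Bcl6, a factor of follicular helper cells, by -2.15. Klrc1, an NK receptor gene, was 4.21 ± 0.25 higher than in naive cells and Ctsw 2.80 higher, and Il4ra differed by -1.36. Ncr1, a receptor gene that defines NK cells, averaged 4.76 in Foxp3- CD24low cells, 4.20 in precursors and 4.58 in naive cells. These means lay under the median gene mean of 5.77, and Ncr1 is 1 gene named outside the rule. Klrc1, also an NK receptor gene, differed far more, and a part of NK cells in the result was not tested.

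In the comparisons that left out those 3 groups the lists moved in both directions. From Foxp3- CD24hi to CD24int 13 of 72 rose and 12 fell, where 5.01% of all genes passed, led by Il2rb at 1.47 ± 0.18 (limma adjusted p = 7.54e-06). Among those that fell, Etv5 differed by -2.05 (limma adjusted p = 2.64e-05). Il2rb, which encodes a chain of the interleukin-2 and interleukin-15 receptors, was 4.68 ± 0.18 higher in Foxp3+ than Foxp3- cells at CD24hi (adjusted p = 1.57e-15), and 3.53 higher at CD24int (2.4e-13). At CD24hi 19 of the list were higher and 15 lower in Foxp3+ cells, where 18% of all genes passed, and at CD24int 23 were higher and 14 lower, where 15.3% passed. Along Foxp3+ maturation 13 rose and 2 fell, where 3.1% of all genes passed, with Cst7 at 2.16 (adjusted p = 1.26e-06) and Runx3, a factor of cytotoxic lineages, at 1.35 (9.77e-06). In lymph node Tregs against Foxp3+ CD24low cells 12 rose and 6 fell, where 5.93% of all genes passed. Of the list, Ctsw had the smallest p, at -2.09 (limma adjusted p = 8.85e-11). It was followed by Il10, an inhibitory cytokine, at 2.66 (adjusted p = 2.03e-08) and Prdm1 at 2.63 (1.1e-07). The abundant Ltb did not pass there (-0.01, adjusted p = 0.993).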

How the data were processed

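RNA of sorted Balb/c T cells was measured on 27 arrays. Per the labels' protocols, 50 ng of total RNA was labelled for Affymetrix 3' arrays. The deposited values are intensities made by the authors with RMA, per the submitters' processing notes, with version and settings not given in the sources used here. They were positive (3.55 to 24083) and were taken to log2 with no constant added.

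Probe sets with several symbols (932) or none (9211) were left out. Each of 18194 genes was read by its brightest single-symbol probe set. limma 3.58.1 in R 4.3.3 fitted 9 group means to all arrays with empirical Bayes moderation and Benjamini-Hochberg adjustment over all genes, two-sided, passing at an adjusted p under 0.05; the fit was tested on simulated data. The array number limits precision. The members and lists were chosen with earlier results of these data known. All members were named. For the other innate list genes, a pool held up to 3 passing with the smallest p and the brightest failing in each comparison. Not all genes of this pool are named. The genes given as like each member came from its 3 most correlated genes. Ncr1, Klrb1c and Trdc were named outside this rule.

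Replicate numbers come from the first digit in each sample's code, which no label explains. Same-numbered arrays deviated together (every r above 0.1) in 8 of 11 comparisons, so a block was an alternative. Others were quantile normalization, omission of dim genes, all or averaged probe sets, the compared groups alone, and each array left out.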

Additional observations from a re-analysis of the deposited data

How the results depend on the processing

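With the alternatives run, none of the members' tested differences that passed turned direction. Of 780 tested values under an alternative, 733 kept their side of the threshold, 21 no longer passed and 26 newly passed, and 27 values that passed in neither setting changed sign. Of 540 described values 10 moved beyond 1 SD, and 10 changed sign.

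The count of members passing from Foxp3+ CD24hi to CD24low was 1, and 2 after quantile normalization, without dim genes or with the compared groups alone, and 3 with the replicate block. For Foxp3+ against Foxp3- cells at CD24hi it was 3, and 5 with the compared groups alone or with the replicate block. Without dim genes it was also 5, but that filter kept any gene whose highest group mean reached the median gene mean of 5.77. Sox13 and Ifng, which newly passed there, met it only through groups outside this comparison, so nothing is read from that count. From Foxp3- CD24hi to CD24int it was 4, and 2 with the compared groups alone. For the interaction it was 0, and 2 with the replicate block (Zbtb16, limma adjusted p = 0.0267, and Ifng, 0.0149). Deviations of same-numbered Foxp3+ and Foxp3- CD24int arrays correlated at r = 0.27, -0.05 and 0.43, so replicate 2 fell under the limit of 0.1. Of members lower without overlap in naive cells than in precursors there were 2, and 1 where all probe sets were used. Between lymph node Tregs and naive cells the members lower numbered 3, and 5 after quantile normalization, and those higher 1, and 0 with all probe sets of a gene required.

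Leaving out 1 array at a time gave 1 to 2 members from Foxp3+ CD24hi to CD24low, 2 to 4 for Foxp3+ against Foxp3- at CD24hi, 4 to 6 at CD24int, 1 to 7 from Foxp3- CD24hi to CD24int, 2 for lymph node Tregs against Foxp3+ CD24low cells and 0 to 4 for the interaction. It gave 1 to 2 higher and 2 to 6 lower members for naive cells against precursors, and 3 to 5 lower for lymph node Tregs against naive cells. These last counts are of arrays without overlap, which fewer arrays make easier, and shares of all genes are not given for them.

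Over all genes, those passing from Foxp3+ CD24hi to CD24low numbered 564, and 368 with the compared groups alone, 1300 with the replicate block and 346 to 364 without Foxp3+ CD24low replicate 2 or 3. From Foxp3- CD24hi to CD24int they numbered 911, and 552 and 1822 with those settings, and for lymph node Tregs 1078 and 1922 with the block. For the interaction they numbered 281, and 166 with the compared groups alone, 1041 with the block and 185 without Foxp3- CD24int replicate 1. Uncollapsed probe sets, a larger table, gave 5227 against 3280 at CD24hi and 4239 against 2779 at CD24int. The cause of these shifts was not tested. Detection calls were not used, so how far low signals, such as Il4 in Foxp3+ cells, lie above background is not known.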
